A study of Mus musculus with 12 samples.

Results

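The iodothyronine deiodinases Dio1, Dio2 and Dio3 were described in mouse liver, as 3 of the 23 selenoprotein genes for which values were given. They were taken by gene symbol, and all 3 had a row in every table. The libraries came from FVB/N mice that carried 20 copies of the transgene TrspA37G, a mutated gene for the tRNA of selenocysteine (Sec), and from wild-type FVB/N mice. The diets held 0, 0.1 or 2.0 ppm selenium and were fed to each genotype during 6 weeks. All groups had the same strain background and the same labelled age of 3 weeks, which is shorter than the time on the diets and was not taken as the age at sampling. From each genotype and diet there was 1 library of ribosome footprints, the mRNA stretches covered by ribosomes, and 1 library of mRNA, so that 12 libraries formed 12 groups of 1. The sources used here do not give the promoter that drives the transgene or the number of mice behind a library. Per the labels, livers were frozen and homogenised with cycloheximide, which holds ribosomes in place, and footprints were taken from monosomes after RNase digestion.

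Deiodinases are membrane enzymes with a thioredoxin fold that remove iodine from thyroid hormones, and their active site holds Sec. Dio1, the type of liver, kidney and thyroid, acts on both rings and makes active hormone from thyroxine as well as clearing inactive forms. Dio2 makes active hormone from thyroxine inside cells and is known from brain, pituitary and brown fat, and Dio3 inactivates thyroid hormone and is known from placenta and fetal tissues. Sec is read from a UGA codon, which needs a stem-loop in the mRNA beyond the stop codon, selenium, and the Sec tRNA. The base changed in TrspA37G lies beside the anticodon and in the normal tRNA carries a modification. The endogenous Sec tRNA gene is also present in these mice.

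The sequences around the UGA codon for Sec are shown because footprints before and after this codon are compared below. Each is the coding strand from 30 bases before to 30 bases after the codon, which stands in capitals as TGA.
Dio1: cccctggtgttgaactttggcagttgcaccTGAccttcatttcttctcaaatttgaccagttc
Dio2: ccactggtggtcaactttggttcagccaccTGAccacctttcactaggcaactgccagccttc
Dio3: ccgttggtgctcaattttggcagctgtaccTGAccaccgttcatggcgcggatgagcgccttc
They were read by GENCODE M21 coordinates on GRCm38. In Dio1 the codon lies at chr4:107297700-107297702 on the minus strand, in exon 2 of 4, and is codon 126 of 257, 49% of the way through the coding sequence. In Dio2 it lies at chr12:90729823-90729825 on the minus strand, in exon 2 of 2, and is codon 130 of 266. A further Sec is annotated in Dio2 at codon 263. The Dio3 codon, at chr12:110279739-110279741 on the plus strand, lies in the only exon of its gene and is codon 170 of 304. The stretch before the UGA codon was the better conserved one between Dio1 and the other members. Dio1 shared 21 of the 30 bases before the codon and 12 of the 30 after it with Dio2. With Dio3 it shared 23 bases before the codon and 11 after it. Dio2 and Dio3 shared 19 bases on each side, and 30 of the 63 positions were the same in all 3. The base after the UGA codon was c in all 3 deiodinases. Among the 23 genes this base was g in 12, c in 6, a in 3 and t in 2.

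Depth was 17763406 to 30296837 mapped reads in the footprint libraries and 10669213 to 16709701 in the mRNA libraries. Values are given as RPKM (reads per length of a region and per mapped read of the library, scaled up) for mRNA and as RPFKM, the same unit for footprints. The coding sequence (CDS) window of the tables leaves out the first and last codons. Whole reads were recovered from these values, and all intervals given are 95% intervals made from the reads. Such an interval covers the counting of reads and nothing else: the spread between mice is left out, and without molecular identifiers 1 molecule can give several reads. A difference is called when the ratio is at least 1.5-fold and its interval excludes 1. In whole liver, fewer cells of a type and less RNA per cell cannot be told apart. Of the hepatocyte markers looked for, 1 of 5 was in the tables (Sepp1), and none of the 2 Kupffer cell, 2 endothelial, 2 stellate and 2 blood markers was. None of the 11 listed genes of the thyroid hormone pathway was in the tables, so neither cell makeup nor hormone response could be looked at here.

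Dio1 made up nearly all deiodinase reads of liver. Over the 6 mRNA libraries, 12152 reads fell on Dio1, 3 on Dio2 and 12 on Dio3, so that Dio1 held 99.9% of them. Over the coding sequences, 4397 footprints fell on Dio1, 1 on Dio2 and 10 on Dio3, which gives Dio1 99.8%. Per length and summed over libraries, the Dio1 mRNA level was 14067-fold that of Dio2 (4812 to 68220) and 1127-fold that of Dio3 (645 to 2182). For footprints, the Dio1 level per length was 4563-fold that of Dio2 (819 to 180280) and 527-fold that of Dio3 (286 to 1099). The plot of deiodinase reads shows that Dio1 was first in every library, while the order of Dio2 and Dio3 varied.

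**Figure D1:**
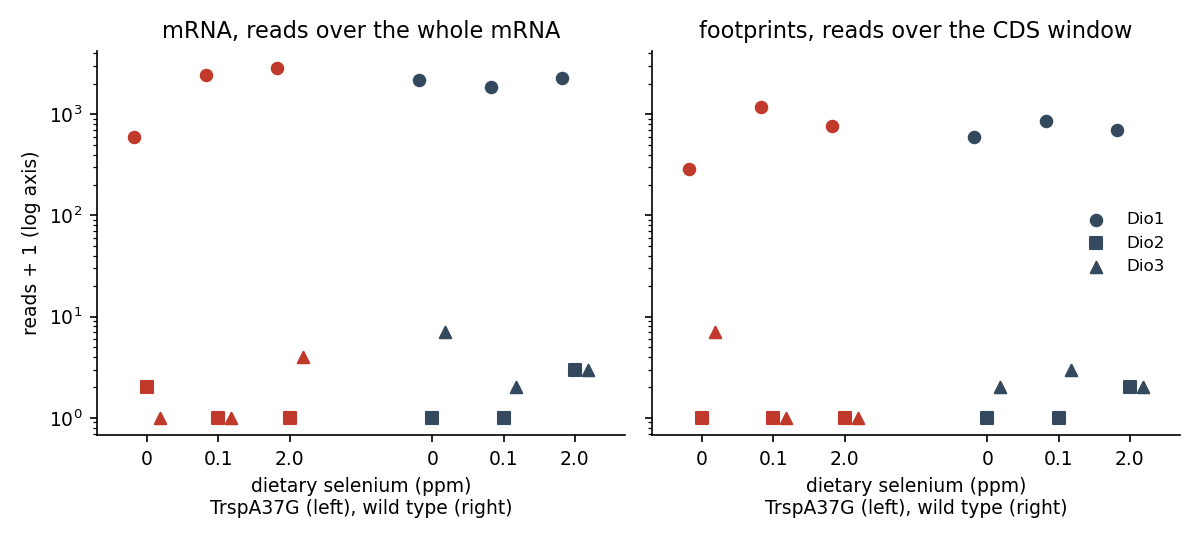
Reads plus 1 on a log axis for Dio1 (circles), Dio2 (squares) and Dio3 (triangles), in TrspA37G liver (left, red) and wild-type liver (right, blue) at 0, 0.1 and 2.0 ppm selenium, for mRNA over the whole mRNA and footprints over the CDS window. Dio1 lies between 601 and 2849 mRNA reads and between 286 and 1178 footprints, while Dio2 and Dio3 hold at most 6 reads in any library.

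The single reads of Dio2, the enzyme that makes active hormone, were in 2 of the 6 mRNA libraries. At 0, 0.1 and 2.0 ppm there were 1, 0 and 0 mRNA reads in TrspA37G liver, and 0, 0 and 2 in wild-type liver. Of Dio2 footprints there was 1, in wild-type liver at 2.0 ppm (0.0760 RPFKM), and no library held an mRNA read over the Dio2 coding window. A count of 0 allows up to 3 reads, which in the libraries without a Dio2 mRNA read would be at most 0.0307 to 0.0481 RPKM. Dio2 was thus at or under the limit of detection at this depth in all 12 libraries.

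Dio3, the inactivating enzyme, had 0, 0 and 3 mRNA reads in TrspA37G liver at 0, 0.1 and 2.0 ppm and 6, 1 and 2 in wild-type liver. Its footprints numbered 6, 0 and 0 in TrspA37G liver and 1, 2 and 1 in wild-type liver. The highest Dio3 levels were 0.192 RPKM in the mRNA of wild-type liver at 0 ppm and 0.243 RPFKM in the footprints of TrspA37G liver at 0 ppm. The TrspA37G library with 6 footprints stood beside an mRNA library of the same group with none. No ratio was formed for Dio2 or Dio3, because neither reached 10 reads over a pair of libraries with at least 1 in each. The Dio3 locus also gives an antisense RNA, and no source used here says whether strand was used in counting, so reads of the 2 strands cannot be told apart.

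Dio1 mRNA was lowest in TrspA37G liver at 0 ppm and highest in TrspA37G liver at 0.1 ppm. At 0, 0.1 and 2.0 ppm it stood at 28.8, 135 and 129.6 RPKM in TrspA37G liver and at 77.6, 76.8 and 108 RPKM in wild-type liver. The reads behind these levels were 601, 2420 and 2849, and 2182, 1838 and 2262. Both TrspA37G libraries on selenium lay above all wild-type libraries, and the one without added selenium lay below them all. In the order of the 6 levels, the neighbours whose intervals overlapped were wild type at 0 and 0.1 ppm, and TrspA37G at 0.1 and 2.0 ppm. Among the 23 selenoproteins, Dio1 held place 10, 5 and 7 from the top by mRNA level in TrspA37G liver at 0, 0.1 and 2.0 ppm, and place 7 in wild-type liver on each diet.

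**Figure D2:**
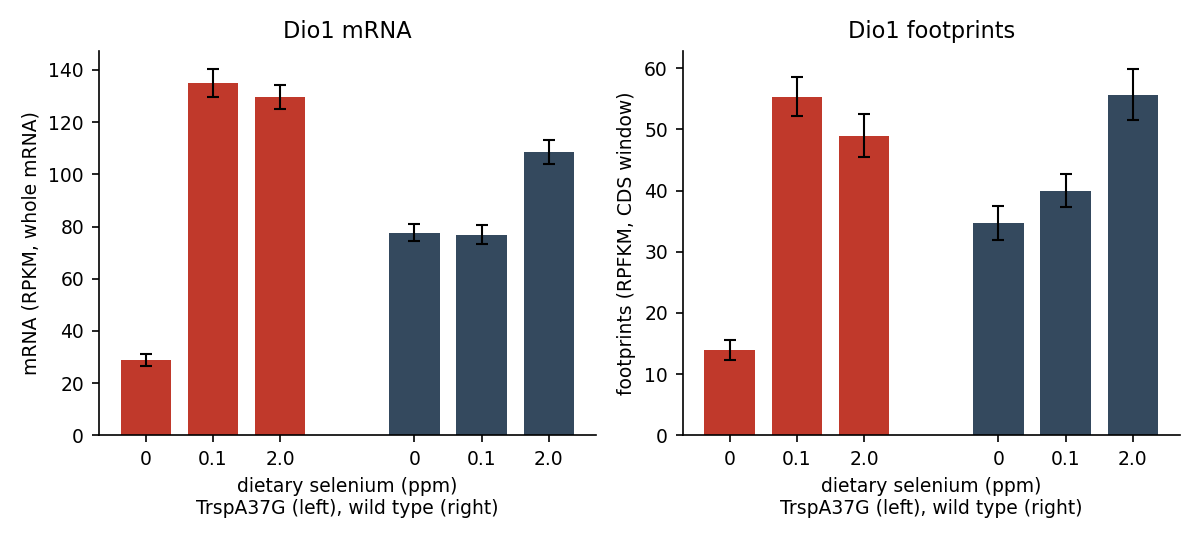
Dio1 mRNA (RPKM over the whole mRNA) and Dio1 footprints (RPFKM over the CDS window) in TrspA37G liver (left, red) and wild-type liver (right, blue) by dietary selenium in ppm, 1 library a bar, with error bars for the 95% counting interval. The TrspA37G bars at 0 ppm are the lowest of each panel, at 28.8 RPKM and 13.9 RPFKM.

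Without added selenium, Dio1 mRNA of TrspA37G liver was 4.68-fold lower than at 0.1 ppm (4.28 to 5.13), and this was called. In this comparison 30% of the 20 genes with enough reads were called, all of them lower. The Dio1 ratio (log2 -2.23) was the lowest of the 20, with Selh, a nuclear redox selenoprotein, next at -2.22. Gpx1, the cytosolic glutathione peroxidase whose mRNA is known to fall with selenium deficiency, had a log2 ratio of -1.68. Gpx4, the lipid hydroperoxide peroxidase that is known to be kept up, was at the other end with 0.16. The median over the 20 genes was -0.44, and relative to that median Dio1 was at -1.78. In wild-type liver the same change of diet left Dio1 mRNA at a log2 ratio of 0.01 (-0.08 to 0.11), where 20% of the genes were called. There Dio1 held place 14 from the lowest, between Sepx1 (-0.12) and Selt (0.09), while Gpx1 had -1.38. As a fold the wild-type interval is 0.949 to 1.08, for these 2 libraries.

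The difference between these diet responses was larger than the counting error. The response of Dio1 mRNA to 0 against 0.1 ppm was lower in TrspA37G than in wild type by a log2 difference of -2.24 (-2.40 to -2.08), which is 4.73-fold. With 1 library in each cell of the design, the spread between mice within a group is unknown. The Dio1 footprints, counted in separate libraries, gave a difference of -1.79 (-2.03 to -1.55) for the same diets, 3.46-fold. Both libraries of TrspA37G liver at 0 ppm were the lowest of their kind for Dio1. No source used here says whether they were made from the same liver.

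Added selenium beyond 0.1 ppm went with small differences of Dio1 mRNA. Between 2.0 and 0.1 ppm the log2 ratio was -0.06 (-0.14 to 0.02) in TrspA37G liver, where 5% of the genes were called. In wild-type liver Dio1 mRNA was 1.41-fold higher at 2.0 than at 0.1 ppm (log2 interval 0.41 to 0.59), which is under the 1.5-fold limit, with 5% of the genes called. In wild type this ratio (log2 0.50) was the highest but 1 of the 20, after Gpx3, the secreted glutathione peroxidase (0.86), and before Sephs2, the synthetase of the selenium donor (0.27). The log2 difference between the genotypes' responses was -0.55 (-0.67 to -0.44), within 1.5-fold.

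Between genotypes, the sign of the Dio1 difference depended on the diet. At 0 ppm Dio1 mRNA was 2.69-fold lower in TrspA37G than in wild-type liver (2.46 to 2.95), in a comparison where 45% of the 20 genes were called, all lower. There Dio1 (log2 -1.43) lay between Selh (-2.96) and Gpx1 (-1.35), with a median of -0.55 over all genes. With at least 50 reads over the 2 libraries Dio1 was the lowest of 17 genes. At 0.1 ppm Dio1 mRNA was 1.75-fold higher in TrspA37G than in wild-type liver (1.65 to 1.87), where 25% of the genes were called and Dio1 was the only one called higher. The next gene was Seli, an ethanolamine phosphotransferase (0.57 against 0.81 for Dio1), and the median was -0.23. Gpx1 mRNA was lower in TrspA37G on this diet (-1.05), and Gpx4 stood at 0.05. At 2.0 ppm the log2 ratio of Dio1 mRNA was 0.26 (0.18 to 0.34), which was not called, with 30% of the genes called. Relative to the median of the 20 genes, the Dio1 mRNA ratios were -0.88, 1.05 and 0.69 at 0, 0.1 and 2.0 ppm, so that the sign was the same at each diet under both scalings.

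**Figure D3:**
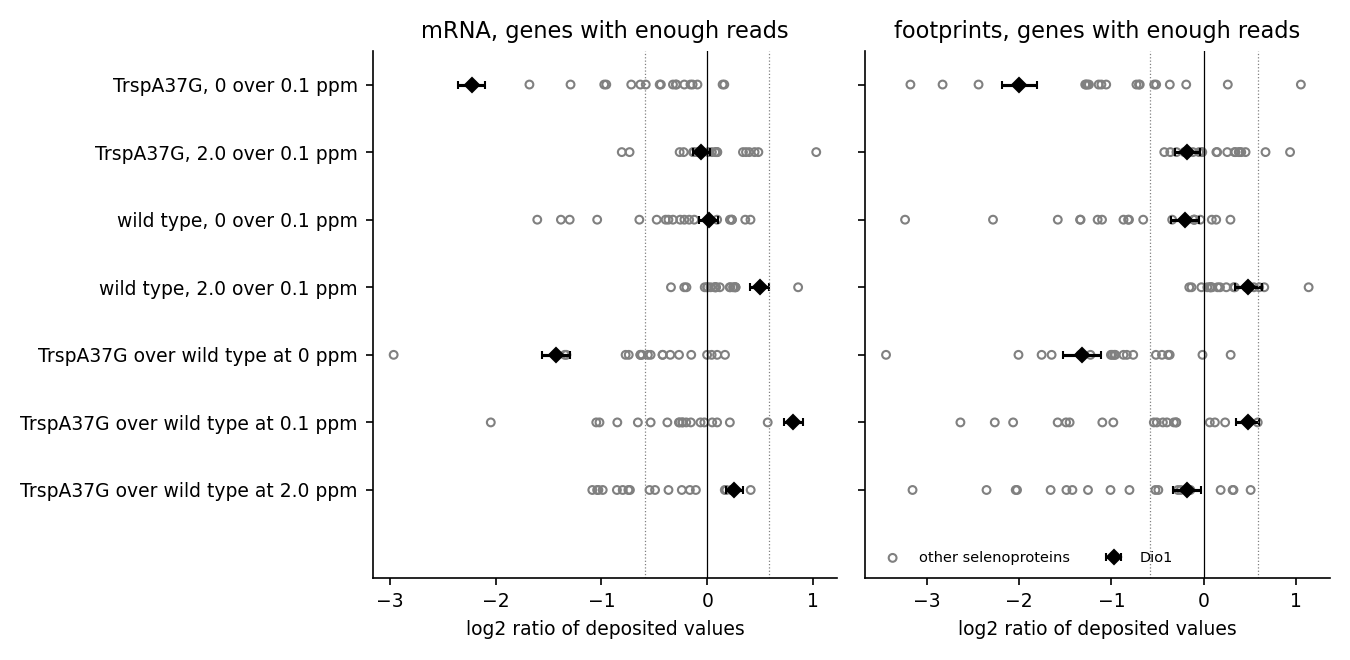
Log2 ratios of the deposited values for Dio1 (black diamonds, bars for the 95% counting interval) and the other selenoproteins with enough reads (open circles), for mRNA and footprints in 7 comparisons, with dotted lines at 1.5-fold. Dio1 is the lowest mRNA ratio in TrspA37G at 0 over 0.1 ppm (-2.23) and the highest in TrspA37G over wild type at 0.1 ppm (0.81).

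Selenoproteins with the thioredoxin fold of the deiodinases, and those of selenium supply, were counted beside Dio1. Among the 9 other thioredoxin-fold selenoproteins 8 could be compared, and 2 of them were called lower in mRNA in TrspA37G liver at 0 against 0.1 ppm (median log2 -0.61), beside 6 of all 20 genes, or 30% (median -0.44). In wild-type liver 3 of the 8 were called lower on this change of diet (median -0.65), beside 4 of all 20, or 20% (median -0.24). Between TrspA37G and wild type at 0.1 ppm, where Dio1 was higher, 3 of the 8 were called lower and none higher (median -0.45), beside 4 of all 20 lower and 1, Dio1, higher (median -0.23). Of the selenium supply genes Sepp1 and Sephs2, 0 of 2 were called in mRNA for these 3 comparisons, with medians of -0.30, 0.01 and -0.22, where 30%, 20% and 25% of all genes were called. In footprints, 7 of the 8 thioredoxin-fold genes and both supply genes were called lower in TrspA37G liver at 0 against 0.1 ppm. There 70% of all 20 genes were called lower, and 75% in either direction.

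The genes whose mRNA levels ran most like Dio1 over the 6 libraries were named by Pearson correlation of log2 RPKM among 18 genes. They were Seli (r = 0.905), Sep15, a selenoprotein of the endoplasmic reticulum (0.846), and Selt, a thioredoxin-fold protein of the same compartment (0.787). Seli mRNA stood at 12.3, 24.2 and 20.2 RPKM in TrspA37G liver at 0, 0.1 and 2.0 ppm and at 18.9, 16.3 and 17.2 RPKM in wild-type liver. Like Dio1, Seli was lowest in TrspA37G at 0 ppm and highest in TrspA37G at 0.1 ppm. Sep15 and Selt were also lowest in TrspA37G at 0 ppm, but were highest in TrspA37G at 2.0 ppm. Gpx1 had r = 0.698 and Gpx4 r = -0.07. In footprints the nearest of 15 genes were Sepn1, a selenoprotein of the endoplasmic reticulum known from muscle (r = 0.988), Selt (0.894) and Gpx4 (0.889). Sepn1 footprints were few in level, at 0.258, 0.623 and 0.616 RPFKM in TrspA37G liver and 0.518, 0.532 and 0.732 RPFKM in wild-type liver at 0, 0.1 and 2.0 ppm. All values of a library share its total of mapped reads, and these correlations rest on 6 libraries. TrspA37G at 0 ppm was the lowest library for each gene named as most like Dio1. It was also the lowest for most of the 18 genes compared in mRNA and of the 15 in footprints, Gpx1 and Sepp1 among them.

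Dio1 footprints over the coding sequence followed the same order within TrspA37G as the mRNA, with smaller steps between genotypes. At 0, 0.1 and 2.0 ppm they stood at 13.9, 55.3 and 48.9 RPFKM in TrspA37G liver and at 34.6, 39.9 and 55.6 RPFKM in wild-type liver. The reads were 286, 1178 and 773, and 592, 863 and 705. By footprint level Dio1 held place 11, 9 and 8 of 23 in TrspA37G liver and 10, 10 and 9 in wild-type liver. In the order of the 6 levels, the intervals of the highest levels (TrspA37G at 0.1 and 2.0 ppm and wild type at 2.0 ppm) overlapped one another, as did those of wild type at 0 and 0.1 ppm.

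In TrspA37G liver Dio1 footprints were 3.99-fold lower at 0 than at 0.1 ppm (3.50 to 4.55), and 75% of the 20 genes were called in this comparison, 70% as lower. Dio1 was place 4 from the lowest, between Selh (log2 -2.44) and Selk (-1.28), where the median was -1.08. Relative to that median Dio1 was at -0.91. With at least 50 reads over the 2 libraries Dio1 was the lowest of 15 genes, so the genes placed below it rested on fewer reads than that. In wild-type liver the log2 ratio for these diets was -0.20 (-0.36 to -0.05), which was not called and became 0.53 relative to the median of all genes, with 55% of the genes called. Between 2.0 and 0.1 ppm the log2 ratio of Dio1 footprints was -0.18 (-0.31 to -0.05) in TrspA37G liver, with 0% of the genes called. In wild-type liver Dio1 footprints were 1.39-fold higher at 2.0 than at 0.1 ppm (1.26 to 1.54), which was not called, with 15% called. The difference between these responses, -0.66 (-0.85 to -0.46), passed 1.5-fold.

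Set against wild type on the same diet, Dio1 footprints of TrspA37G liver were 2.50-fold lower at 0 ppm (2.16 to 2.88), where 60% of the genes were called. Relative to the median gene this log2 ratio of -1.32 was -0.35, under the 1.5-fold limit. At 0.1 ppm they were 1.39-fold higher (1.27 to 1.52), which was not called as given and was called relative to the median gene (0.95), with 40% of the genes called. Only Seli (0.58) had a higher footprint ratio among the 20 genes at 0.1 ppm, and the median was -0.48. Gpx1 footprints were far lower in TrspA37G on this diet (-2.63). At 2.0 ppm the log2 ratio was -0.18 (-0.33 to -0.04) and turned to 0.48 relative to the median gene, with 50% of the genes called.

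With footprints counted over the CDS window, Dio1 had fewer of them per mRNA than most selenoproteins of the tables. In Dio1, 53.4% of that window lies 3′ of the UGA codon. Translational efficiency, the footprint level over the CDS divided by the mRNA level of the same group, was 0.482, 0.410 and 0.377 for Dio1 in TrspA37G liver at 0, 0.1 and 2.0 ppm. In wild-type liver it was 0.446, 0.519 and 0.513. The medians over genes with enough reads were 0.603, 0.580 and 0.641 in TrspA37G liver and 0.853, 0.980 and 1.16 in wild-type liver, and Dio1 was below the median in all 6 groups. None of the 7 comparisons of this ratio was called for Dio1, where 50%, 0%, 30% and 5% of the 20 genes were called between diets and 15%, 30% and 30% between genotypes. At 0 against 0.1 ppm its log2 ratio was 0.23 (0.00 to 0.46) in TrspA37G liver, where the median gene had -0.31. In wild-type liver it was -0.22 (-0.39 to -0.04), which turned to 0.29 relative to the median gene. Between TrspA37G and wild type it was 0.11 at 0 ppm, -0.34 at 0.1 ppm and -0.44 at 2.0 ppm, with medians of -0.26, -0.30 and -0.47 over all genes. The 2.0 ppm value turned to 0.03 relative to the median gene. With footprints and mRNA both counted 5′ of the UGA codon, a ratio added after the uneven mRNA reads described below were seen, Dio1 stood at 1.07, 0.880 and 0.872 in TrspA37G liver and at 1.00, 1.06 and 1.10 in wild-type liver. No median over genes is given for this ratio, so the place of Dio1 among the selenoproteins is not known for it.

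Most Dio1 footprints lay before the UGA codon for Sec. The window 5′ of the codon holds 315 nt and the window 3′ of it 381 nt, and 18 nt lie between them. Footprints 5′ of the codon stood at 23.9, 86.7 and 81.7 RPFKM in TrspA37G liver at 0, 0.1 and 2.0 ppm and at 57.9, 57.3 and 80.1 RPFKM in wild-type liver. Footprints 3′ of the codon, left by ribosomes that had passed it, stood at 3.91, 22.6 and 18.3 RPFKM in TrspA37G liver and at 10.2, 21.7 and 25.4 RPFKM in wild-type liver. The 3′ levels rest on 43, 257 and 154 reads in TrspA37G liver and 93, 250 and 172 in wild-type liver. The 5′ window held 63.4% to 75.9% of the CDS footprints over the 6 libraries, and the 3′ window 15.04% to 29.0%.

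In the mRNA libraries the same windows ran the other way. The 5′ window held 20.4% to 23.4% of the Dio1 mRNA reads over the CDS and the 3′ window 70.8% to 72.6%. The mRNA level 5′ of the codon was 22.3, 98.5 and 93.7 RPKM in TrspA37G liver and 57.9, 54.0 and 72.5 RPKM in wild-type liver. The mRNA level 3′ of it was 57.6, 258 and 239 RPKM in TrspA37G liver and 145, 148 and 213 RPKM in wild-type liver. The ratio of 3′ to 5′ mRNA was between 2.50 and 2.94 in all 6 libraries, and no comparison of it was called for Dio1. Reads of Dio1 mRNA were thus spread unevenly along the transcript and to a like degree in each group. The 18 nt between the windows had the highest density in every library of both kinds, with 6.34% to 12.1% of the CDS footprints and 5.34% to 6.94% of the CDS mRNA reads. Where these 18 nt lie was inferred from the lengths of the windows and not tested.

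**Figure D4:**
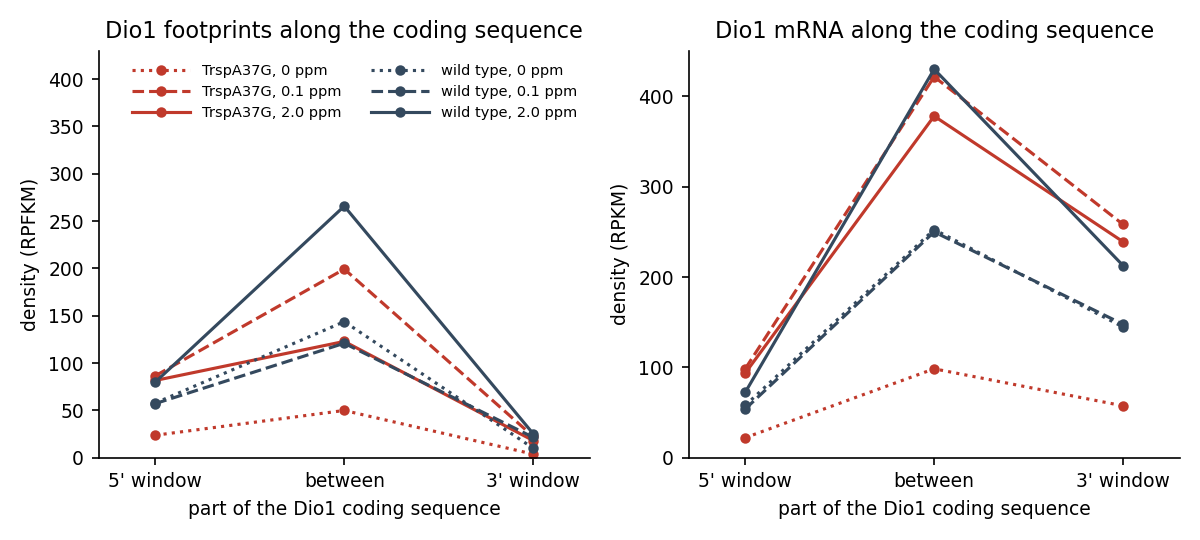
Density along the Dio1 coding sequence in the 5′ window, the 18 nt between the windows and the 3′ window, for footprints (RPFKM, left) and mRNA (RPKM, right), with TrspA37G in red and wild type in blue and 0, 0.1 and 2.0 ppm dotted, dashed and solid. Footprint density drops beyond the UGA codon in all 6 libraries, to at most 25.4 RPFKM, while mRNA density is higher in the 3′ window than in the 5′ window. The middle points were formed by subtraction, from the CDS reads outside both windows, and are not values given by the authors.

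The readthrough ratio, the footprint density 3′ of the UGA codon over that 5′ of it, is formed within a library and so is free of its scaling. For Dio1 it was 0.164 (0.115 to 0.228) in TrspA37G liver at 0 ppm, 0.261 (0.226 to 0.301) at 0.1 ppm and 0.223 (0.186 to 0.267) at 2.0 ppm. In wild-type liver it was 0.176 (0.139 to 0.221), 0.378 (0.324 to 0.440) and 0.317 (0.265 to 0.379). Both genotypes were lowest at 0 ppm and highest at 0.1 ppm, and the intervals at 0.1 and 2.0 ppm overlapped within each genotype. Dio1 was at or below the median of the genes with enough reads in all 6 groups. Those medians were 0.182, 0.369 and 0.362 in TrspA37G liver and 0.197, 0.378 and 0.483 in wild-type liver. Divided by the mRNA ratio of the same windows, the Dio1 ratio was 0.0634, 0.0995 and 0.0876 in TrspA37G liver and 0.0704, 0.138 and 0.108 in wild-type liver, in the same order as before.

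**Figure D5:**
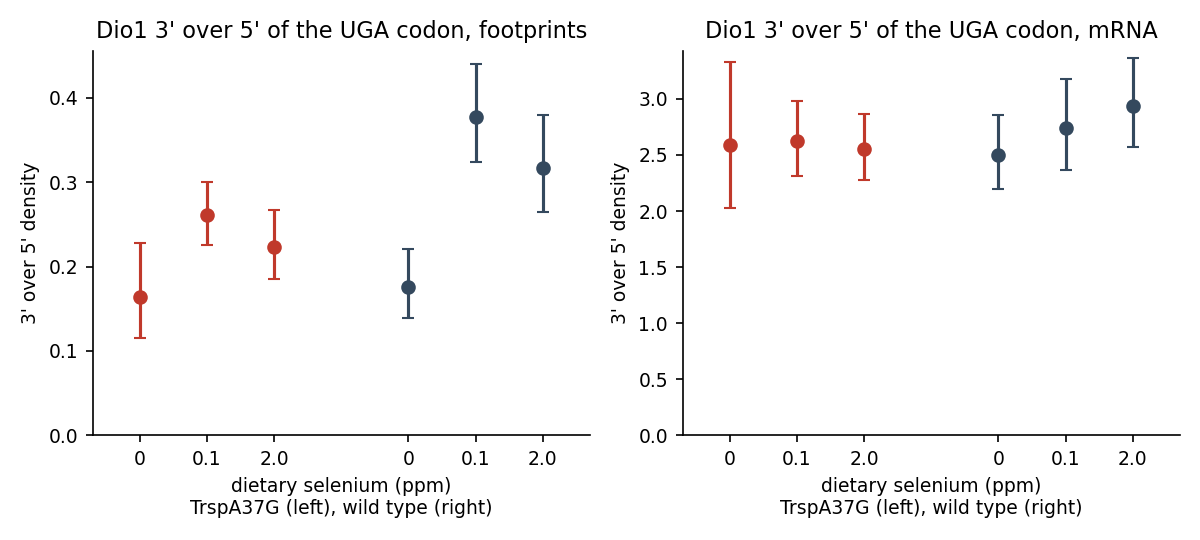
Dio1 density 3′ over 5′ of the UGA codon in footprints (left) and mRNA (right), in TrspA37G liver (red) and wild-type liver (blue) by dietary selenium in ppm, 1 library a point with its 95% counting interval. The footprint ratio runs from 0.164 to 0.378 and is lowest at 0 ppm in both genotypes, while the mRNA ratio stays between 2.50 and 2.94.

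Without added selenium the Dio1 readthrough ratio was 1.59-fold lower than at 0.1 ppm in TrspA37G liver (1.11 to 2.33) and 2.15-fold lower in wild-type liver (1.63 to 2.84), and both were called. In these comparisons 80% of 10 genes and 66.7% of 12 genes were called, so a call for Dio1 is what most genes showed. The log2 ratio of Dio1 in TrspA37G, -0.67, was closer to 0 than the median of -1.32, and Gpx1 and Gpx4 had -1.23 and -1.40. In wild type Dio1 had -1.10, the median was -1.18, and Gpx1 and Gpx4 had -2.26 and -1.23. The difference between the genotypes' responses, 0.43 (-0.21 to 1.07), was within its interval of 0. Between 2.0 and 0.1 ppm the log2 ratios were -0.22 (-0.56 to 0.11) in TrspA37G liver and -0.25 (-0.60 to 0.09) in wild-type liver, with 9.09% and 8.33% of the genes called.

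Between genotypes the readthrough ratio of Dio1 differed by less than 1.5-fold on every diet. At 0 ppm the log2 ratio of TrspA37G over wild type was -0.10 (-0.71 to 0.49), with 33.3% of 9 genes called. At 0.1 ppm the ratio was 1.45-fold lower in TrspA37G (1.17 to 1.79), and at 2.0 ppm 1.42-fold lower (1.10 to 1.84), with 18.2% and 16.7% of the genes called. Both of these intervals exclude 1. Divided by the mRNA ratio of the same windows, the log2 ratios were -0.47 (-0.88 to -0.07) at 0.1 ppm and -0.30 (-0.74 to 0.14) at 2.0 ppm. The interval at 2.0 ppm then includes no change. Gpx1 had log2 ratios of -1.29 at 0.1 ppm and -0.40 at 2.0 ppm, and Gpx4 had -0.33 and -0.02.

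The windows before and after the codon were also compared between diets. In wild-type liver at 0 against 0.1 ppm, footprints 5′ of the UGA codon had a log2 ratio of 0.02 (-0.17 to 0.20), with 31.6% of the genes called. Those 3′ of it were 2.12-fold lower (1.67 to 2.73), where 76.9% of 13 genes were called and Dio1 was itself the median gene. Relative to the median its log2 ratio was therefore 0, and the call was lost. In TrspA37G liver both windows were called lower at 0 than at 0.1 ppm. The 5′ level was 3.63-fold lower (3.12 to 4.24), with 50% of the genes called (44.4% lower and 5.56% higher), and the 3′ level 5.79-fold lower (4.18 to 8.19), with 81.8% called. Relative to the median gene these log2 ratios of -1.86 and -2.53 were -1.23 and -0.47, and the 3′ value was no longer called. Between 2.0 and 0.1 ppm no window was called in either genotype, with 5.26% to 10.5% of the genes called.

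Between genotypes at 0.1 ppm, footprints of Dio1 5′ of the UGA codon were called higher in TrspA37G liver than in wild-type liver, and those 3′ of it were not called. The 5′ level was 1.51-fold higher (1.36 to 1.69), at the edge of the 1.5-fold limit, with 36.8% of the genes called, and this was the highest of 19 ratios, ahead of Seli (log2 0.56). Footprints 3′ of the codon had a log2 ratio of 0.06 (-0.19 to 0.32), with 58.3% of the genes called. Relative to the median gene both windows were called higher at 0.1 ppm, with log2 ratios of 1.01 for the 5′ window and 0.91 for the 3′ window. Each window was set against its own median, -0.41 for the 5′ window and -0.85 for the 3′ window. This scaling therefore does not bear on the contrast between windows. That contrast is the readthrough ratio given above, 1.45-fold lower in TrspA37G on this diet (1.17 to 1.79). At 0 ppm both windows were called lower in TrspA37G, 2.43-fold for the 5′ window (2.06 to 2.87) and 2.61-fold for the 3′ window (1.80 to 3.83), with 56.2% and 81.8% of the genes called. Relative to the median gene these were -0.39 and 0 on the log2 scale, and neither was called. In the 3′ window Dio1 was itself the median of 11 genes, so its value of 0 was fixed in advance. At 2.0 ppm the log2 ratios were 0.03 (-0.15 to 0.21) for the 5′ window and -0.48 (-0.80 to -0.16) for the 3′ window, with 42.1% and 61.5% of the genes called. The 3′ value turned to 0.77 relative to the median gene.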

How the data were processed

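Per the submitters' processing notes, reads were mapped with Bowtie to mouse build mm9; versions, read filters and the treatment of multiply mapped reads were not stated there. The values were deposited in 4 tables of 23 genes, of which 1 gives RPKM values over whole mRNAs, per the file headers. By the same headers, the others hold footprints (RPFKM) and mRNA (RPKM) over the CDS without its first 15 and last 3 codons, and 5′ and 3′ of the UGA codon. The authors scaled these values by length and mapped reads, so abundant RNAs that differ between libraries shift every other value. Column 8 of the last 3 tables, called mRNA in one header line and RPFKM in another, was read as footprints because another column holds that group's mRNA.

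Whole reads were recovered by finding 1 number of mapped reads per library, the one that made the most CDS values whole. After this, 795 of 795 values above 0 were whole within 0.001 reads. For 641 of them the length came from annotated codons (GENCODE M21, GRCm38). For the rest the length was fitted to give whole reads, so these were whole by construction. With annotated lengths, 95.3% of CDS values were whole at the window used, against 8.53% at the best of 8 others. The window used is 1 codon shorter than the headers state, and the window as they state it was among those 8. For whole mRNAs, Dio1 included, the smallest fitting length was used, so the reads are the fewest possible. Intervals are exact conditional (Clopper-Pearson) for ratios, exact Poisson for levels, and the conditional odds ratio up to 2000 reads or log-normal above that for ratios of ratios and for differences between diet responses. A gene needed at least 10 reads over the 2 libraries and 1 in each. On simulated reads, 12 of 12 library totals came back and intervals held the true value in 94.3% of 300 draws for ratios and 96.7% for ratios of ratios. These reads were Poisson draws made with the recovered totals and lengths. The simulation therefore checks the calculation alone, and neither the recovered totals nor the spread between libraries.

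Each comparison sets 1 library against 1 other, so no p-value was given. Named genes were Dio1, Dio2 and Dio3, Gpx1 and Gpx4 as marks of the range, the 3 most correlated with Dio1 for each kind of library, and those next to Dio1 in an order, with genes at the ends of an order named after their values were seen. Members and lists were chosen with earlier results of these data known. Alternatives were median-ratio scaling over the listed selenoproteins, a 2-fold limit, a floor of 50 reads, a pseudocount of 1 and other windows. Python 3.11.15, NumPy 2.4.6, SciPy 1.17.1 and Matplotlib 3.10.9 were used.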

Additional observations from a re-analysis of the deposited data

Results flagged for a closer look

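The difference between TrspA37G and wild-type liver had opposite signs on different diets. For Dio1 mRNA the log2 ratio of TrspA37G over wild type was -1.43 at 0 ppm, 0.81 at 0.1 ppm and 0.26 at 2.0 ppm. For Dio1 footprints over the CDS it was -1.32, 0.47 and -0.18 at these diets, and 5′ of the UGA codon it was -1.28 at 0 ppm and 0.60 at 0.1 ppm. Each value rests on 1 library a group, and whether the diets differ beyond the spread between mice was not tested.

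The response to diet also had opposite signs in the 2 genotypes, with both intervals excluding no change, for 2 measures. Between 2.0 and 0.1 ppm the log2 ratio of Dio1 footprints was -0.18 in TrspA37G and 0.48 in wild type. Between 0 and 0.1 ppm that of translational efficiency was 0.23 in TrspA37G and -0.22 in wild type. The wild-type value of translational efficiency turns positive relative to the median gene, and none of these 4 ratios was called. With footprints counted 5′ of the UGA codon alone, the wild-type value was 0.00 (-0.20 to 0.20). With footprints and mRNA both counted there it was -0.09 (-0.40 to 0.23), and the TrspA37G value was 0.28 (-0.13 to 0.71). Signs also differed for mRNA and 5′ footprints at both changes of diet, and for 3′ footprints at 2.0 over 0.1 ppm. In each of these cases at least 1 of the intervals included no change. None of these differences was tested over mice.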

How the results depend on the processing

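Of 50 Dio1 ratios, 16 were called. Of 202 alternatives over them, 186 stayed on the same side of the rule (some uncalled ones with a turned sign), 11 lost a call, 4 gained one and 1 reversed. A 2-fold limit cannot add a call, so for uncalled ratios it could only leave the outcome the same. These cases are among the 186. For the counts of called genes only the floor of reads was changed, and 0 of 56 moved by over 1.5 times. The floor of 50 reads did move the place of Dio1 in some orders, as given above for TrspA37G liver at 0 ppm. Dio1 mRNA in TrspA37G at 0 over 0.1 ppm was called under each alternative run. Median-ratio scaling, taken over selenoproteins only and with a median of its own for each measure, changed the genotype comparisons most. Under it the log2 ratio of TrspA37G over wild type became 0.69 for mRNA at 2.0 ppm (called), 0.95 for footprints at 0.1 ppm (called) and -0.35 for footprints at 0 ppm (not called), and that of 3′ footprints at 2.0 ppm reversed to 0.77 (called) and at 0.1 ppm became 0.91 (called). Windows 5′ and 3′ of the codon that lost their call under it are given with their values above. With a 2-fold limit the calls were lost for mRNA of TrspA37G over wild type at 0.1 ppm (0.81), footprints 5′ of the UGA codon in the same comparison (0.60), the readthrough ratio of TrspA37G at 0 over 0.1 ppm (-0.67) and the difference between the genotypes' footprint responses at 2.0 over 0.1 ppm (-0.66). That difference was also not called without the nucleotides between the windows (-0.54). A pseudocount of 1 left the readthrough ratio of TrspA37G at 0 over 0.1 ppm at -0.45 (not called). With mRNA counted over the CDS window the difference between mRNA responses at 2.0 over 0.1 ppm was -0.62 (called). The causes were not tested. Genotypes could have been paired by diet, which was left out. An exchange of genotype labels inside each of the 3 diets reaches a two-sided exact p of 0.25 at best. Dio2 and Dio3 were limited by depth.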
